A study of Homo sapiens with 4 samples.

Results

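The divergent long non-coding RNAs (lncRNAs) described here are those whose transcription start lies 0 to 2000 bases upstream of the start of a protein-coding gene on the opposite strand, and whose span overlaps no protein-coding gene of the deposited table. Position and gene type chose them, and no measured value did. The table held 60048 genes, of which 16814 were of type lncRNA, and 1220 of these met the rule. They faced 1205 distinct protein-coding genes, called partner genes here, of which 15 had more than 1 such lncRNA. For 28 lncRNAs more than 1 gene met the rule, and the nearest was taken as the partner. The signal came from EU-seq, in which living cells take up the uridine analogue 5-ethynyl uridine (EU), and the RNA made during that time is captured and sequenced. The cells were HCT116, an epithelial line from a colorectal carcinoma, carrying RAD21-mAC in all 4 libraries, that is, the cohesin subunit RAD21 joined to a tag through which auxin triggers its destruction. The control group received DMSO (n = 2 libraries). The auxin group received indole-3-acetic acid at 0.5 mM over 3 h to remove RAD21 (n = 2 libraries). With the tag in all 4 libraries, an effect of auxin itself cannot be told apart from that of RAD21 loss. EU was given at 0.5 mM over 20 min in both groups, and the labelled RNA was captured together with that of fly cells.

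Most active mammalian promoters are transcribed in both directions. RNA polymerase II starts at separate core promoters on either side of a nucleosome-poor stretch, and the RNA that leaves upstream and antisense to the gene is usually ended early, at poly(A) signals, and destroyed by the nuclear RNA exosome. Some of these upstream transcripts are long and stable enough to be annotated as lncRNA genes of their own, often under the partner's name with the ending DT (divergent transcript) or AS (antisense). Labelling nascent RNA samples such transcripts before they decay. Cohesin, the ring complex to which RAD21 belongs, extrudes DNA loops and is found at many active promoters and enhancers.

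The following 6 promoter windows show the geometry of the pairs on which the results below turn, each 300 bases from RefSeq (GRCh38.p14) on the strand of the gene named, 5′ to 3′. The capitals mark the bases between the start of the lncRNA and the start of its partner, both start bases included, as the deposited table gives the starts, and as far as they lie within the window. IRS1 (chr2:226799771-226800070, minus strand) and its lncRNA AC010735.2 both fell with auxin. SPATA3 (chr2:230995871-230996170, plus strand) did not pass the test while SPATA3-AS1 rose, and TIPARP (chr3:156674340-156674639, plus strand) fell while TIPARP-AS1 did not pass. BACH2 (chr6:90296794-90297093, minus strand) and RTTN (chr18:70205638-70205937, minus strand) fell, and their starts lie 59 and 87 bases from those of AL132996.1 and AC021701.1. MIR22HG (chr17:1716161-1716460, minus strand) is itself the lncRNA, and rose while its partner WDR81 did not pass.
IRS1: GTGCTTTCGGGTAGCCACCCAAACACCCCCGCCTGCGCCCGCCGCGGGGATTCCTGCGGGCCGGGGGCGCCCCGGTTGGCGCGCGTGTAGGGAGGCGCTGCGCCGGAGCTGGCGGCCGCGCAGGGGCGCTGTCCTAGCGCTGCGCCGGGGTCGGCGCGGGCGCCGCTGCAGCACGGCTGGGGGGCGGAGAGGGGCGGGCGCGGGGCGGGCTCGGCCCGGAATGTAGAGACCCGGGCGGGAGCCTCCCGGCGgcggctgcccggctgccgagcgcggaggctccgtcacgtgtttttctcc
SPATA3: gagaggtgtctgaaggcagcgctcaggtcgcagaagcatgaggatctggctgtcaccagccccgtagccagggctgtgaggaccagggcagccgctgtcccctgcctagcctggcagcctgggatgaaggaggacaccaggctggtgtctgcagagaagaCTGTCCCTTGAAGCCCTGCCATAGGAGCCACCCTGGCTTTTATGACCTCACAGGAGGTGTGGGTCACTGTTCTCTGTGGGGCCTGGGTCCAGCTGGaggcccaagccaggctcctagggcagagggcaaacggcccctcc
TIPARP: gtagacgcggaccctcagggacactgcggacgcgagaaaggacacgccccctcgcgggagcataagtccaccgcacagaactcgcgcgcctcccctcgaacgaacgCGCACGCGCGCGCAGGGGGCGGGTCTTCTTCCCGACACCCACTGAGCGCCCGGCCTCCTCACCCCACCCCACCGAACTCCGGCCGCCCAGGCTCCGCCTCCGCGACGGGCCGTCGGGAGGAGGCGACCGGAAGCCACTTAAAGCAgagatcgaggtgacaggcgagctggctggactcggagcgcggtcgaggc
BACH2: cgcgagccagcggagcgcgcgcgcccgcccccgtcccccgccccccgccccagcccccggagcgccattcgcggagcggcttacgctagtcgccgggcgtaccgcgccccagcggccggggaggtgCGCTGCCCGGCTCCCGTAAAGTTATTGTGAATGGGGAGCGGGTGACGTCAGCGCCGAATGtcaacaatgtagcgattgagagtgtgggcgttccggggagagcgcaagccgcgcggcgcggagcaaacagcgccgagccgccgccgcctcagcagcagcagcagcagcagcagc
RTTN: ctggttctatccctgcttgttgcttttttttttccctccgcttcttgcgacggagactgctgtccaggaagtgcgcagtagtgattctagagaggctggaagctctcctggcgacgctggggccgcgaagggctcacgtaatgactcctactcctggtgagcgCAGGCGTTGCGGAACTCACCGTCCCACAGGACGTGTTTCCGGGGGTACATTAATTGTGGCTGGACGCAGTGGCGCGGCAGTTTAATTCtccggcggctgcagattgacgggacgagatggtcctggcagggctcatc
MIR22HG: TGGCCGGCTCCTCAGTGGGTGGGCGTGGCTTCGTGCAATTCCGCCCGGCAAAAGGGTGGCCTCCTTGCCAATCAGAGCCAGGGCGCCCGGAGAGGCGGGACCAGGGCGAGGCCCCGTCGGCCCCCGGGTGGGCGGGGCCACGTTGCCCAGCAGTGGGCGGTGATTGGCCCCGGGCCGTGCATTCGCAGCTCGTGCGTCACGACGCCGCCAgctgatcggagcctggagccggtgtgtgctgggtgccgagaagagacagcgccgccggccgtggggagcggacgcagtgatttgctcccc

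The stretch between the starts holds 96 bases at SPATA3, 145 at TIPARP, 60 at BACH2 and 88 at RTTN, and runs past the window at IRS1 (shown from 250 bases before the start) and at MIR22HG (210 bases shown). The SPATA3 window held the fewest CpG dinucleotides of the 6, at 5 with 63.7% G and C, against 47 CpG and 79.3% at IRS1, 41 and 71.0% at TIPARP, 45 and 73.3% at BACH2, 22 and 58.3% at RTTN, and 32 and 72.3% at MIR22HG. RefSeq placed the start of BACH2 65 bases and that of MIR22HG 41 bases downstream of the start in the deposited table.

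Windows of the same symbol, chromosome and strand were found for 965 partner genes, of which 911 had a RefSeq start within 500 bases of the table's. Promoters that face a divergent lncRNA were CpG-rich. The 911 windows had a median of 68.7% G and C and 31 CpG dinucleotides, against 62.7% and 22 over 14180 windows of other protein-coding genes, and 58.7% and 14 over all 35116 RefSeq windows. The windows of other protein-coding genes were the first listed for each symbol, with no match of chromosome, strand or start. These sets were thus chosen unlike that of the partners, and the part of this in the differences was not tested. The observed number of CpG over that expected from the base composition had a median of 0.891 at partner genes, 0.759 at the other protein-coding genes and 0.579 over all windows. Motifs were sought on both strands, with overlaps between motifs allowed. The letters GGGCGG, the core of the GC box bound by SP1, were in 76.9% of partner windows, 58.3% of other protein-coding windows and 45.0% of all windows. TATAAA, the letters of the TATA box, were in 4.72%, 9.89% and 11.5%. CCAAT, bound by the factor NF-Y, was at a like share in the 3 sets (34.2%, 36.7% and 34.6%). AATAAA, the letters of the poly(A) signal, were in 5.60%, 12.7% and 17.4%, and GGTAAG, the start of a common 5′ splice site, in 6.81%, 6.91% and 8.02%. The lncRNAs' own windows, found for 255 of which 210 had a start within 500 bases, were like those of the partners, with a median of 68.2% G and C, 29 CpG, GGGCGG in 75.2% and TATAAA in 5.71%. The windows of a close pair cover much of the same DNA, since each holds 250 bases before the start. A match is a description of the letters and shows no binding.

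The starts of a pair lay close together. The distance from the partner's start to that of the lncRNA ranged from 1 to 1976 bases, with a median of 236.5 and quartiles of 124 and 580.25. It was at most 250 bases for 628 lncRNAs, at most 500 for a further 244, at most 1000 for a further 182 and up to 2000 for the remaining 166. The lncRNAs spanned 122 to 1375317 bases with a median of 4181.5, and the partner genes a median of 39497. By name, 147 ended in AS (144 with the partner's symbol), 131 in DT (129 with the partner's symbol), 58 were of the LINC series, 826 carried only a clone name, and 58 had another name. Of the 1220, 899 overlapped no other gene of the table and 321 overlapped a gene that was not protein-coding. For 109 lncRNAs, the end of a further protein-coding gene transcribed toward them lay within 5 kb.

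The values are a deposited signal per gene and library over the whole span, scaled here between libraries, in which 1 unit is not 1 read. Totals before scaling ranged from 61135244 to 93113007, and the number of reads behind them is unknown. The values showed no separation by strand. Among lncRNAs lying inside exactly 1 protein-coding gene, the median log2 ratio of signal per kb to the host was -0.02 for 1702 on the strand opposite the host and -0.02 for 490 on the host's strand. Signal over a lncRNA may therefore hold RNA of either strand, and RNA of another gene that runs through its span. The epithelial markers EPCAM, CDH1, KRT8, KRT18 and KRT19 ranged from 4515 to 25008 in all 4 libraries, LGR5 from 58.4 to 74.6 and ASCL2 from 6.78 to 10.1. Of the markers of other cells, PTPRC, CD3E, COL1A2, DCN and ALB stayed at or below 34.8, and PECAM1 lay between 200.0 and 247. RAD21, whose protein and not its gene is the target, was 5154 and 7190 in control and 5893 and 6264 in auxin (log2 change -0.0029, SE 0.17, limma adjusted p = 0.998). No label says whether the replicates came from separate cultures, so p-values measure the spread between these libraries, which may be technical.

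The lncRNAs gave less signal per kb of span than their partners. Above 0 in at least 1 library were 1156 of the 1220, and 64 were at 0 in all 4. The filter on low values left 1018 lncRNAs, 1144 partner genes and 990 pairs with both tested. The median signal per kb was 22.7 over the 1018 lncRNAs and 78.8 over the partner genes. It was 14.7 over the other tested lncRNAs, 0.931 over the 2236 tested lncRNAs more than 50 kb from any protein-coding gene, and 62.0 over the other protein-coding genes. The 3 lncRNA sets differ in length, with median spans of 5046 bases over the 1018, 10889 over the others and 41499 over the 2236. The part of span in these differences was not tested. In the 707 pairs with a mean of at least 50 in both genes, the partner had a median of 2.98 times the signal per kb of its lncRNA (quartiles 1.13 and 9.88). The lncRNA was the higher per kb in 159 of them (22.5%).

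Signal per kb of both lncRNAs and partners was lowest where the starts lay farthest apart, and lower where the lncRNA was annotated as longer. In these 4 classes of distance, from the nearest to the farthest, the tested lncRNAs had a median of 22.4, 30.8, 22.1 and 15.4. The share that passed the filter was 86.8%, 88.9%, 83.0% and 63.3%. The partners had medians of 84.3, 81.6, 76.7 and 51.8 per kb in the same classes. In pairs with means of at least 50, the median log2 ratio of lncRNA to partner per kb was -1.58, -1.48, -1.69 and -1.44, and was thus not lowest in the farthest class. With the lncRNAs ordered by span into 4 equal sets, from the shortest (122 to 1341 bases) to the longest (16509 to 1375317 bases), the median was 101, 42.3, 13.7 and 5.35 per kb. The partners of those 4 sets had medians of 99.6, 83.5, 72.8 and 56.5 per kb, so that the tested lncRNAs of the shortest set and their partners had like medians. The filter acts on the signal over the whole span, so that a short lncRNA needed more per kb to be tested than a long one. It passed 75.4% of the shortest set and 96.4% of the longest. The part of the filter in the fall with span was not tested. The 109 lncRNAs with the end of another protein-coding gene within 5 kb had a median of 62.1 per kb against 20.8 for the others. Their partners were higher as well, at 187 per kb against 73.6. In pairs with means of at least 50, the median log2 ratio of lncRNA to partner per kb was -1.26 against -1.65. The part of read-through in the signal of the lncRNAs was not tested.

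**Figure D1:**
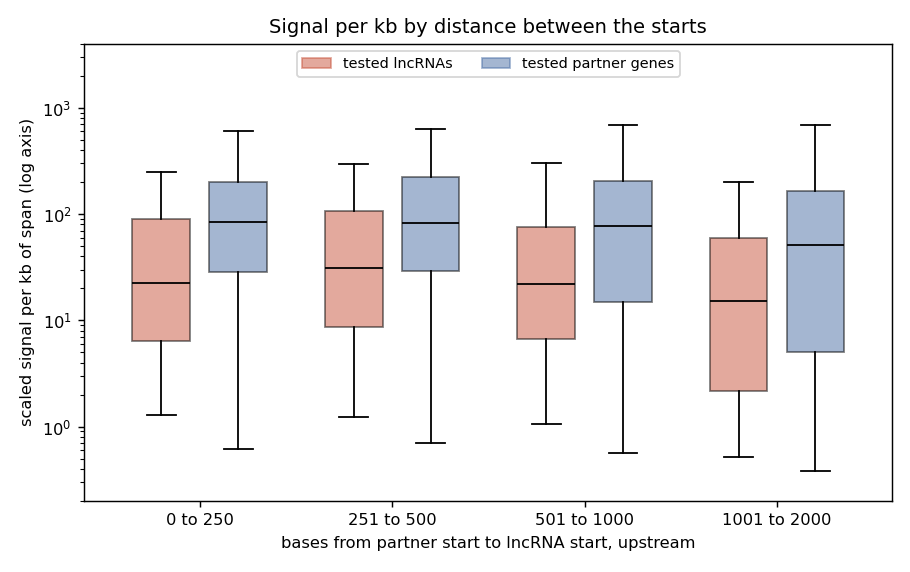
Signal per kb of span (log axis, mean of 4 libraries) of the tested lncRNAs and of their tested partner genes, by the bases between the 2 starts; boxes give the quartiles and the median, whiskers the 5th to 95th percentile. The lncRNA medians are 22.4, 30.8, 22.1 and 15.4 from the nearest to the farthest class. Each is below the median of the partners, which is 84.3, 81.6, 76.7 and 51.8 in that order.

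The 5 divergent lncRNAs with the highest signal per kb were hosts of small RNAs or short transcripts, and none passed the test between auxin and control. RMRP, the RNA of the RNase MRP ribonucleoprotein that processes ribosomal RNA, had 3559 per kb and lies 274 bases from CCDC107. Its signal was 819 and 1044 in control and 918 and 1034 in auxin. SNHG19, which carries a small nucleolar RNA, had 3379 per kb beside TRAF7, with 1747 and 2017 in control and 1759 and 2073 in auxin. SNHG1, a snoRNA host beside the amino acid transporter gene SLC3A2, had 2001 per kb, with 7467 and 9079 in control and 7238 and 7383 in auxin. AC015813.4 beside CUEDC1 had 1672 per kb and MIR378D2HG beside PDP1 had 1178. The 5 had log2 fold changes between -0.26 and 0.08, and limma adjusted p-values between 0.796 and 0.991. A deposited row of the symbol RMRP overlaps the RMRP row, and the end of ARHGEF39, transcribed toward RMRP, lies within 5 kb, so that these rows may share signal.

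Few divergent lncRNAs changed between control and auxin. Of 1018 tested, 7 passed an adjusted p of 0.05 in limma (0.688%), against 0.732% of all 39464 tested genes and 0.580% of the tested lncRNAs. The 5 that rose (background 0.332% higher) were CYP1B1-AS1, SPATA3-AS1, NQO2-AS1, AC062028.1 and MIR22HG, and the 2 that fell (background 0.4% lower) were AC010735.2 and AC010834.2. The share of the lncRNAs was near that of all genes. At an unadjusted p under 0.05 it was 8.55% of the lncRNAs (87) and 10.2% of all genes. The partner genes passed more often, 21 of 1144 (1.84%), of which 10 were higher and 11 lower, against 1.17% of all tested protein-coding genes. The median standard error of the log2 fold change was 0.288 over the lncRNAs and 0.158 over the partners, so that a change of the same size was less likely to pass in a lncRNA. The difference in share between lncRNAs and partners was not tested.

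All 7 called lncRNAs changed with the sign of their partner's fold change, except that WDR81, beside MIR22HG, turned negative on the deposited scale and with control replicate 2 or auxin replicate 1 left out. In 3 pairs the partner passed as well. CYP1B1-AS1 (chromosome 2, plus strand, 38076194 to 38202696) starts 43 bases from CYP1B1, a cytochrome P450 that oxidises oestrogens and polycyclic aromatic compounds and is a classic target of the aryl hydrocarbon receptor. Its signal was 539.97 and 436 in the control libraries (replicate 1, then 2), and 1242 and 1680 in the auxin libraries in that order. CYP1B1 itself was 288 and 119 in control and 2204 and 2007 in auxin. Auxin and control did not overlap for either gene, and both rose. The log2 fold change was 1.57 (SE 0.21, limma adjusted p = 0.00931) for the lncRNA and 3.50 (SE 0.34, adjusted p = 0.00179) for CYP1B1. The row of CYP1B1-AS1 overlaps 4 other rows that are not protein-coding, AC009229.2, AC009229.3, AC009229.4 and RNU6-951P. On the deposited scale its adjusted p was 0.0697.

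AC010735.2 (chromosome 2, plus strand, 226800146 to 226813741) starts 326 bases from IRS1, the adaptor that carries signals from the insulin and IGF receptors. Its signal was 168 and 247 in control and 39.2 and 53.9 in auxin, and that of IRS1 was 11448 and 12143 in control and 2825 and 2831 in auxin. Every auxin library lay below every control library in both genes. The row of AC010735.2 overlaps that of AC010735.1. The lncRNA fell by 2.12 on the log2 scale (SE 0.31, limma adjusted p = 0.0155) and IRS1 fell by 2.06 (SE 0.13, adjusted p = 2.59e-04), a difference between them of -0.06 (SE 0.30). Without control replicate 2 the lncRNA had an adjusted p of 0.0654, and IRS1 kept its call without any single library.

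AC062028.1 (chromosome 2, minus strand, 11124219 to 11132770) starts 358 bases from C2orf50. The lncRNA was 71.2 and 65.5 in control and 183 and 182 in auxin, and C2orf50 was 172 and 173 in control and 399 and 456 in auxin. Both rose to a like extent, by 1.40 (SE 0.26, limma adjusted p = 0.0444) and 1.30 (SE 0.22, adjusted p = 0.0285) on the log2 scale. Each call was lost without single libraries. The adjusted p of the lncRNA was 0.086 without control replicate 2, 0.0692 without auxin replicate 1 and 0.083 without auxin replicate 2, and C2orf50 had 0.054 and 0.0723 when control or auxin replicate 2 was left out.

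In the other 4 pairs the partner did not pass. SPATA3-AS1 (chromosome 2, minus strand, 230984368 to 230996031) starts 95 bases from SPATA3, a gene named for its expression in spermatogenesis. The lncRNA was 17.8 and 30.7 in control and 117 and 101 in auxin, the largest rise among the called lncRNAs (log2 change 2.17, SE 0.37, limma adjusted p = 0.0319; 0.0516 with no filter on low values). SPATA3 was 58.5 and 78.8 in control and 91.0 and 78.6 in auxin, with overlapping libraries and a log2 change of 0.31 (SE 0.31, adjusted p = 0.863). The log2 change of the ratio of lncRNA to partner was 1.85 (SE 0.31, adjusted p = 0.108).

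MIR22HG (chromosome 17, minus strand, 1711511 to 1716251), the host transcript of miR-22, starts 272 bases from WDR81, a gene for a protein of endosomes. MIR22HG was 3963 and 3766 in control and 6458 and 6059 in auxin, with no overlap between groups. The row of MIR22HG overlaps that of MIR22. WDR81 was 5159 and 3556 in control and 4976 and 3785 in auxin, so that the replicates of a group differed more than the groups. MIR22HG rose by 0.70 (SE 0.13, limma adjusted p = 0.0478) and WDR81 had a log2 change of 0.02 (SE 0.20, adjusted p = 0.994). The adjusted p of MIR22HG lay between 0.0601 and 0.127 when control replicate 1, control replicate 2, auxin replicate 1 or auxin replicate 2 was left out.

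NQO2-AS1 (chromosome 6, minus strand, 2989336 to 2999604) starts 290 bases from NQO2, which encodes a quinone reductase. It was 362 and 378 in control and 901 and 707 in auxin, and NQO2 was 5547 and 4258 in control and 8318 and 7117 in auxin. Both sets of libraries were apart, upward in auxin. The row of NQO2-AS1 overlaps that of LINC01011. The log2 fold change was 1.11 (SE 0.20, limma adjusted p = 0.0413) for the lncRNA and 0.66 (SE 0.16, adjusted p = 0.117) for NQO2. The call of NQO2-AS1 was lost without control replicate 1 (adjusted p = 0.0664), control replicate 2 (0.0745) or auxin replicate 1 (0.156).

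AC010834.2 (chromosome 8, plus strand, 93741193 to 93744534) starts 176 bases from RBM12B, which encodes an RNA-binding protein. It was 322 and 388 in control and 128 and 141 in auxin, a fall of 1.39 on the log2 scale (SE 0.23, limma adjusted p = 0.0286; 0.0878 without control replicate 2). RBM12B was 7543 and 8577 in control and 5555 and 4904 in auxin (log2 fold change -0.62, SE 0.14, adjusted p = 0.0852). The groups did not overlap for either gene. On the scale of the deposited values, only AC010735.2 and SPATA3-AS1 of the 7 lncRNAs passed.

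**Figure D2:**
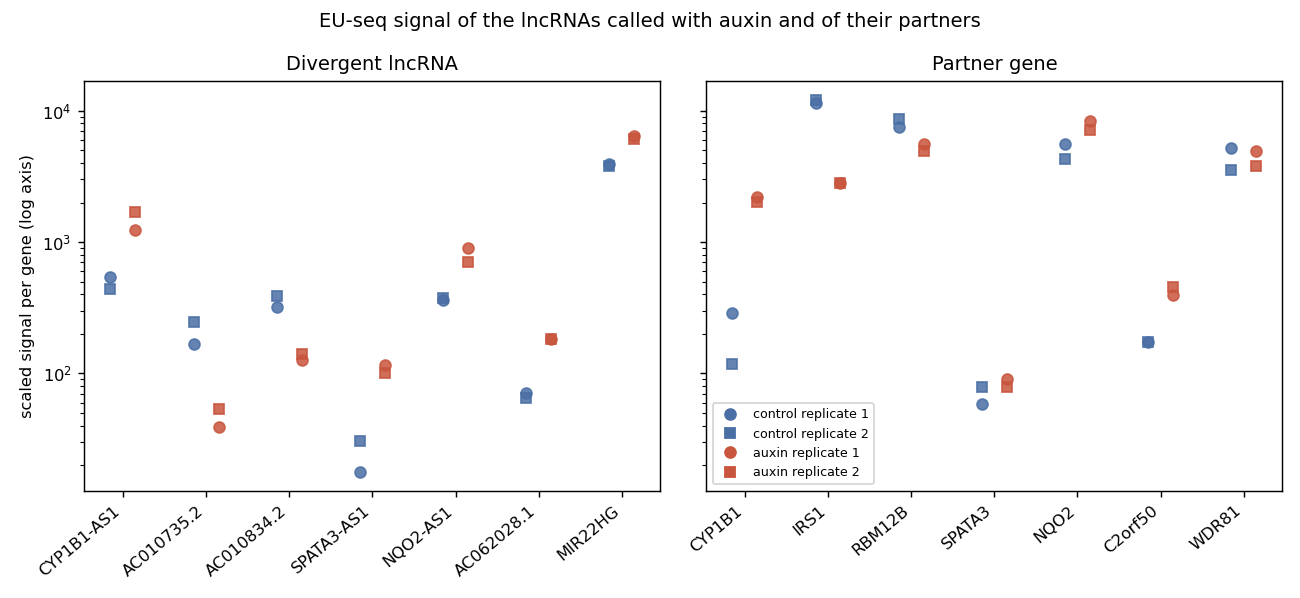
Scaled signal (log axis) of the 7 lncRNAs that passed the test and, in the same order, of their partner genes, with 1 point for each library. Auxin and control points do not overlap for any of the 7 lncRNAs, and they overlap for the partners SPATA3 and WDR81.

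Where a partner gene changed, its lncRNA mostly had a fold change of the same sign, without passing the test. Of the 21 called partners, 20 faced a tested lncRNA. The lncRNA's log2 fold change had the sign of the partner's in 19 of the 20 pairs, though that of TIPARP-AS1 turned positive when scaled by library size only, and TIPARP-AS1, CPEB2-DT and AL365215.2 changed sign with single libraries left out. Its libraries were apart in that direction in 13 and overlapped in 7, while 18.6% of all tested genes were apart as higher and 19.6% as lower. It passed in 3, against 0.732% of all tested genes. The median log2 fold change of the lncRNA was 0.64 over the 9 partners that rose and -0.88 over the 11 that fell, against 0.0089 over all tested genes. These pairs were taken because the partner passed, which favours a large change in the partner, so the sizes in gene and lncRNA are not compared over them.

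SOX9, a transcription factor of intestinal progenitors and cartilage, was 4526 and 6526 in control and 1257 and 1507 in auxin, and SOX9-AS1 was 282 and 278 in control and 77.6 and 147 in auxin. SOX9 fell by 1.98 (SE 0.19, limma adjusted p = 0.00183) and the lncRNA had a log2 change of -1.38 (SE 0.31, adjusted p = 0.0914), with no overlap between groups in either. NECTIN3, a cell adhesion molecule, was 21578 and 30444 in control and 8855 and 8471 in auxin, beside NECTIN3-AS1 at 977 and 1749 in control and 581 and 664 in auxin. The gene fell by 1.57 (SE 0.15, adjusted p = 0.00183), and the lncRNA's log2 fold change was -1.07 (SE 0.26, adjusted p = 0.116). JARID2, a cofactor of Polycomb repressive complex 2, was 36917 and 30522 in control and 12147 and 12211 in auxin. Its lncRNA AL136162.1, whose start is 1069 bases away, was 52.6 and 25.6 in control and 30.3 and 12.4 in auxin, with overlapping groups. JARID2 fell by 1.46 (SE 0.12, adjusted p = 9.03e-04) and the lncRNA's log2 change was -0.88 (SE 0.55), and that of their ratio was 0.58 (SE 0.55, adjusted p = 0.846).

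At KITLG, TIPARP and DCBLD2 the gene fell, while the lncRNA had a smaller log2 change or one of the other sign, though no ratio between them passed the test. KITLG, the ligand of the receptor KIT, was 35690 and 59145 in control and 12209 and 13016 in auxin (fell by 1.87, SE 0.19, limma adjusted p = 0.0021). AC024941.2, 1169 bases away, was 292 and 434 in control and 230.1 and 262 in auxin (log2 fold change -0.53, SE 0.25, adjusted p = 0.51). The ratio of lncRNA to gene had a log2 change of 1.33 (SE 0.19), with an adjusted p of 0.0726, the smallest of all divergent pairs. TIPARP, a mono-ADP-ribosyltransferase that restrains the aryl hydrocarbon receptor, was 9825 and 9864 in control and 4609 and 4266 in auxin (fell by 1.15, SE 0.13, adjusted p = 0.00293). TIPARP-AS1, whose start is 144 bases away, was 75.4 and 111 in control and 77.6 and 106 in auxin (log2 fold change -0.01, SE 0.32, adjusted p = 0.997), with overlapping groups. Their ratio had a log2 change of 1.14 (SE 0.32, adjusted p = 0.383), which misses the threshold. DCBLD2, which encodes a transmembrane protein related to neuropilins, was 60489 and 70294 in control and 36869 and 35376 in auxin (fell by 0.85, SE 0.10, adjusted p = 0.00428). AC091212.1, 729 bases away, was the 1 lncRNA of the 20 with a fold change of the opposite sign, at 3211 and 6242 in control and 5255 and 7060 in auxin (log2 fold change 0.44, SE 0.27, adjusted p = 0.668; -0.03 without control replicate 1). Its row also overlaps LINC00973.

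Of the lncRNAs beside the other partners that fell, LINC00535 had the most signal. COL18A1, which encodes collagen XVIII, was 19929 and 20455 in control and 11283 and 11064 in auxin (fell by 0.85, SE 0.11, limma adjusted p = 0.00656), and BX322562.1 beside it was 21.2 and 43.0 in control and 9.81 and 18.0 in auxin. CIBAR1, whose protein acts at cilia, fell by 0.84 (SE 0.14, adjusted p = 0.0246; 0.0822 without control replicate 2), and LINC00535 was 515 and 522 in control and 299.6 and 309 in auxin (log2 fold change -0.77, SE 0.20, adjusted p = 0.146). BACH2, a transcriptional repressor best known in lymphocytes, was 3015 and 4129 in control and 1388 and 1897 in auxin (fell by 1.12, SE 0.20, adjusted p = 0.0394; 0.13 without control replicate 2). Its lncRNA was faint. AL132996.1 beside BACH2 was 35.6 and 48.1 in control and 38.3 and 31.4 in auxin, with overlap. RTTN, needed for centriole assembly, was 5542 and 7105 in control and 2883 and 3775 in auxin (fell by 0.93, SE 0.18, adjusted p = 0.0473; 0.156 without control replicate 2), and AC021701.1 was 27.1 and 53.2 in control and 26.8 and 10.1 in auxin.

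Of the partners that rose beside CYP1B1 and C2orf50, STAG1 encodes a cohesin subunit. STAG1 was 26340 and 29885 in control and 44680 and 48949 in auxin (log2 change 0.74, SE 0.10, limma adjusted p = 0.0129), and AC117382.2, 252 bases away, was 158 and 207 in control and 206 and 221 in auxin (0.24, SE 0.25, adjusted p = 0.867), with overlap. CPEB2, which encodes a regulator of mRNA translation, was 422 and 255 in control and 1269 and 859 in auxin (1.67, SE 0.28, adjusted p = 0.0263; 0.0594 without control replicate 2), and CPEB2-DT was 70.3 and 48.1 in control and 95.4 and 46.0 in auxin. HPCAL1, of the neuronal calcium sensor family, was 35170 and 26773 in control and 48145 and 59478 in auxin (0.80, SE 0.14, adjusted p = 0.0354; 0.0878 without control replicate 2). AC007240.3 beside it was 134 and 197 in control and 286 and 709 in auxin (1.46, SE 0.38, adjusted p = 0.145), apart from control but with widely spread auxin libraries.

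The other 4 tested pairs whose partner rose held ANXA11, TLNRD1, RPH3AL and RSU1. ANXA11, an annexin, was 26489 and 31249 in control and 42387 and 49758 in auxin, and LINC00857 was 732 and 914 in control and 1326 and 1282 in auxin. ANXA11 rose by 0.68 (SE 0.12, limma adjusted p = 0.0331; 0.0673 without control replicate 1), and LINC00857 had a log2 change of 0.67 (SE 0.18, adjusted p = 0.17). TLNRD1, a talin rod domain protein, rose by 0.84 (SE 0.14, adjusted p = 0.0286; 0.0565 without control replicate 1 and 0.051 without auxin replicate 2), beside AC068870.2 at 75.5 and 78.8 in control and 103 and 139 in auxin. RPH3AL, a Rab effector of exocytosis, rose by 0.78 (SE 0.14, adjusted p = 0.0334; 0.104 without control replicate 2), beside AC129507.3 at 118 and 114 in control and 168 and 194 in auxin. RSU1, a protein of focal adhesions, rose by 0.70 (SE 0.12, adjusted p = 0.0334; 0.102 without control replicate 2 and 0.0593 without auxin replicate 2), beside AL365215.2 at 16.1 and 31.7 in control and 21.4 and 25.8 in auxin. All but the last lncRNA had groups that did not overlap. GALNT9, an enzyme of mucin-type glycosylation, rose from 2942 and 2126 in control to 8379 and 7598 in auxin (1.67, SE 0.17, adjusted p = 0.0021), and its lncRNA AC148477.1 was listed at 0 in all 4 libraries.

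**Figure D3:**
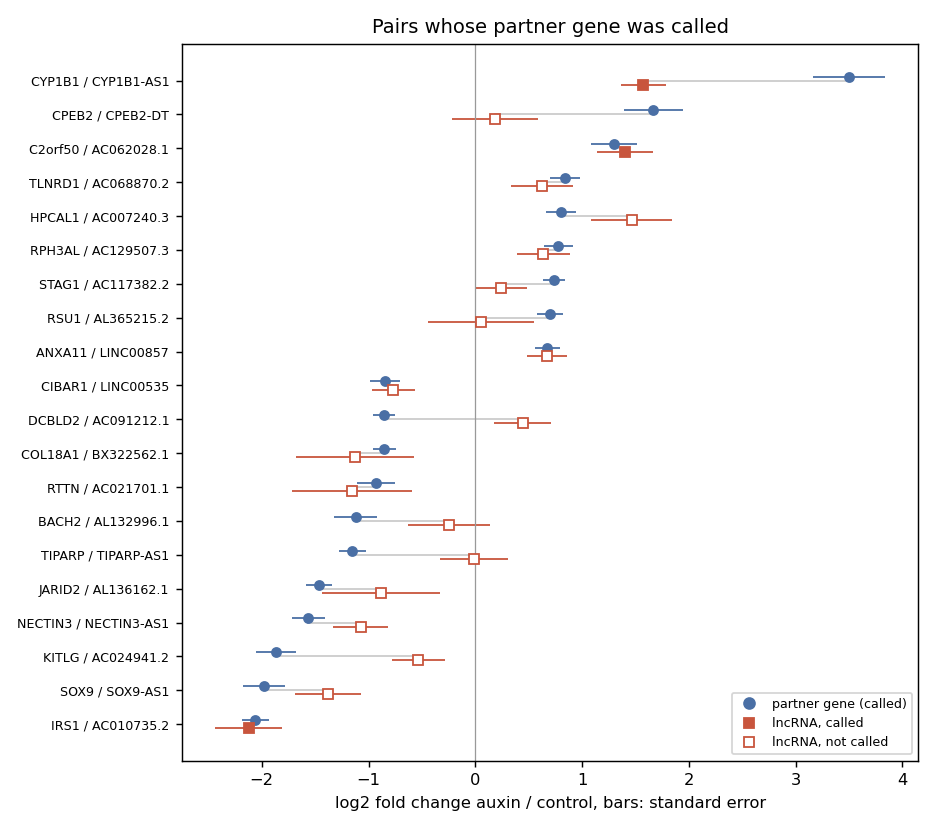
Log2 fold change, auxin over control, of the 20 called partner genes with a tested lncRNA and of those lncRNAs, with standard errors as bars. The lncRNA at DCBLD2 lies across 0 from its gene, and filled squares mark the 3 lncRNAs that passed (at CYP1B1, C2orf50 and IRS1).

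Across all 990 pairs, the change of the lncRNA followed that of its partner loosely. As a description over pairs that share the same 4 libraries, Pearson's r of the log2 fold changes was 0.37 and Spearman's rho 0.33, and the signs were the same in 610 pairs (61.6%). The differences within a group also ran together, at a rho of 0.24 between the 2 controls and of 0.19 between the 2 auxin libraries. With 1 library on each side, as in those values, rho was 0.29 for auxin against control in replicate 1 and 0.27 in replicate 2. In the 707 pairs with means of at least 50, rho was 0.43 between the group means, and the signs were the same in 457 (64.6%). Between single libraries it was 0.37 and 0.33 for auxin against control, 0.25 between the controls and 0.23 between the auxin libraries. In the 471 of these whose lncRNA overlaps no other gene, rho was 0.44 between the group means. Between single libraries it was 0.35 in both replicates, against 0.29 and 0.24 within the groups. By distance between the starts, rho of the group means was 0.40, 0.42, 0.40 and 0.53 in the same 4 classes from the nearest to the farthest. Between the controls it was 0.22, 0.24, 0.42 and 0.31, and between the auxin libraries 0.23, 0.24, 0.23 and 0.24. In the class of starts more than 500 and up to 1000 bases apart, the value between the controls was thus above that of the group means.

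Between the group means, other neighbours gave lower values than the 707 lncRNA pairs with means of at least 50. Within the groups, where those pairs had a rho of 0.25 and 0.23, divergent protein-coding pairs were at a like level. Over 1016 divergent pairs of 2 protein-coding genes with means of at least 50, rho was 0.26 between the group means, 0.27 between the controls and 0.22 between the auxin libraries. Over 3795 other lncRNAs and their nearest protein-coding gene, with no overlap, these were 0.14, 0.18 and 0.14. The differences between these sets were not tested. Points within a set share the libraries and their scaling, and both strands of a locus may count toward each gene.

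**Figure D4:**
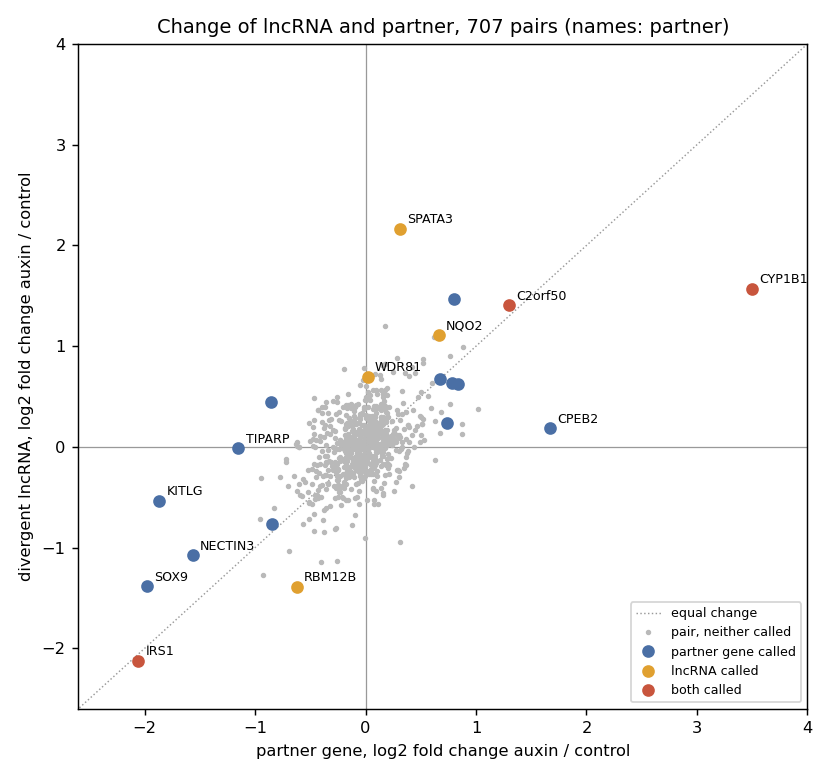
Log2 fold change, auxin over control, of the lncRNA (vertical) against that of its partner gene (horizontal) in the 707 pairs with means of at least 50; the dotted line marks equal change. Named points include CYP1B1, whose lncRNA changed less than the gene (1.57 against 3.50), and SPATA3, whose lncRNA changed more (2.17 against 0.31).

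Counted by libraries that did not overlap between groups, 226 lncRNAs (22.2%) were higher and 179 (17.6%) lower in auxin, against 18.6% and 19.6% of all tested genes. Partner genes leaned the other way, with 20.3% higher and 27.2% lower. The genes outside the pairs leaned likewise by type. Other tested lncRNAs had 20.2% higher and 18.6% lower, and other protein-coding genes 20.5% higher and 23.6% lower. In 217 pairs both genes were apart, and in 167 of these (77.0%) they were apart in the same direction. Both were higher in 85 and both lower in 82, while the lncRNA was higher and the gene lower in 37, and the reverse held in 13. The same share was not counted for other neighbours. By sign alone, with means of at least 50, agreement was 64.6% in the divergent lncRNA pairs, and 55.6% and 56.9% for them within control and within auxin. It was 60.8% in divergent protein-coding pairs and 53.5% in other lncRNAs and their nearest gene. The median log2 fold change was 0.03 over the lncRNAs and -0.02 over the partner genes. The lncRNA median was -0.0138 without control replicate 2, and the partner median was 0.0153 when scaled by library size only.

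The ratio of lncRNA to partner, fitted per pair, removes what moves both genes alike. No divergent pair passed an adjusted p of 0.05 in limma (0 of 990), against 0.222% of 11687 pairs of a tested lncRNA and a protein-coding gene (0.154% higher, 0.0685% lower). At an unadjusted p under 0.05 there were 87 (8.79%, background 8.86%). With the replicate number as a block, 20 of the 990 passed, against 352 of all 11687 pairs. Fits with 1 control library left out, which leave that group a single library, also called some ratios. The median log2 change of the ratio was 0.05 (quartiles -0.19 and 0.29), against 0.03 over all the pairs. Both auxin libraries lay above both controls in 229 pairs (23.1%, background 20.9%) and below in 167 (16.9%, background 16.9%).

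EPCAM, the epithelial adhesion molecule used as a marker of these cells, was among the 5 pairs with the smallest p for the ratio, with KITLG, SPATA3, CYP1B1 and DCBLD2. EPCAM was 5331 and 6076 in control and 4515 and 4786 in auxin, and EPCAM-DT was 1198 and 1153 in control and 1466 and 1783 in auxin. The libraries were apart in opposite directions. The log2 fold changes were -0.29 (SE 0.14, limma adjusted p = 0.513) and 0.46 (SE 0.17, adjusted p = 0.361), and that of the ratio was 0.75 (SE 0.15, adjusted p = 0.175), so none of the 3 passed. The row of EPCAM-DT overlaps BCYRN1, a gene of a short cytoplasmic RNA.

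Of the lncRNAs with the largest rises and falls among pairs with means of at least 50 and no overlap, 3 have not been named above. AC008972.2 beside FCHO2, a gene of clathrin-mediated endocytosis, was 32.2 and 37.9 in control and 69.6 and 95.5 in auxin (log2 change 1.20, SE 0.35, limma adjusted p = 0.194), while FCHO2 was 3432 and 3323 in control and 3707 and 3917 in auxin (0.17, SE 0.14). AC009962.1 beside ITPRID2 was 153 and 423 in control and 76.7 and 143 in auxin (-1.28, SE 0.45, adjusted p = 0.308), and ITPRID2 was 25635 and 42302 in control and 17254 and 17346 in auxin (-0.93, SE 0.19, adjusted p = 0.062). AL139819.1 beside SCD, the stearoyl-CoA desaturase of fatty acid synthesis, was 224 and 229 in control and 85.6 and 121 in auxin (-1.14, SE 0.27, adjusted p = 0.103), with SCD at 19597 and 17673 in control and 14951 and 13174 in auxin (-0.41, SE 0.12). None of these 3 lncRNAs passed the test.

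Of a list of 32 lncRNAs drawn up here as candidates for divergence from a protein-coding gene, 11 met the rule and 9 were tested. MIR22HG alone of the 9 passed, as higher, while 0.332% of all tested genes passed as higher. The median log2 fold change of the 9 was -0.17, against 0.0089 over all tested genes. ZFAS1, a snoRNA host beside ZNFX1, was 22719 and 24042 in control and 22989 and 24504 in auxin (log2 change 0.02, SE 0.10, limma adjusted p = 0.988; -0.02 without auxin replicate 2). PANDAR, beside the p53 target CDKN1A, was 206 and 345 in control and 236 and 329 in auxin, with overlap, while CDKN1A was 5501 and 5651 in control and 8119 and 8013 in auxin (0.53, SE 0.12, adjusted p = 0.102). Several developmental lncRNAs of this list were at low signal in this line, though SOX9-AS1 ranged from 77.6 to 282. FENDRR beside FOXF1 ranged from 9.33 to 33.8, HOTTIP beside HOXA13 from 3.37 to 16.4 and FOXD3-AS1 beside FOXD3 from 26.3 to 55.0 over the 4 libraries. GATA6-AS1 was 6.78 and 9.21 in control and 0 and 4.49 in auxin and GATA3-AS1 was at 0 throughout, and neither was tested.

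The lncRNAs were also described by the role of their partner. The counts in these lists stand beside the 1.17% of tested protein-coding genes and 0.58% of tested lncRNAs that passed in either direction. Of 15 genes of cohesin, its loading and its release, 4 faced a divergent lncRNA, and STAG1 alone passed, as higher, with none of the 4 lncRNAs passing. AC027682.1 beside the insulator protein gene CTCF was 79.7 and 111 in control and 102 and 80.8 in auxin. AL731569.1 beside the cohesin release factor gene WAPL was 535 and 360.2 in control and 362 and 266 in auxin. NIPBL-DT beside the loader gene NIPBL was 573 and 423 in control and 477 and 330.1 in auxin. All 3 overlapped between groups, and their limma adjusted p-values were 0.991, 0.573 and 0.802.

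Of 25 genes of polymerase pausing and elongation, 4 faced a divergent lncRNA and none of the 4 genes or 4 lncRNAs passed. HEXIM1, an inhibitor of the elongation kinase P-TEFb, was 3859 and 4315 in control and 4022 and 4102 in auxin, and AC142472.1, whose start is 5 bases away, was 355 and 359 in control and 406 and 406 in auxin. The lncRNA beside NELFCD, AL109840.2, was 226 and 190.3 in control and 277 and 232 in auxin, that beside AFF4, AC010240.3, was 29.7 and 27.6 in control and 49.1 and 37.1 in auxin, and that beside CDK13, AC072061.1, was 219 and 272 in control and 245 and 244 in auxin. The 4 lncRNAs had positive log2 fold changes with a median of 0.24, and the 4 genes a median of 0.03.

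Of 38 immediate early and signal-response genes, 9 faced a tested divergent lncRNA, and no gene or lncRNA of the 9 pairs passed. The median log2 fold change was 0.45 over the genes, of which 7 were positive, and 0.17 over the lncRNAs, of which 6 were positive. JUN, a subunit of the AP-1 transcription factor, was 3172 and 3654 in control and 4546 and 5253 in auxin (0.52, SE 0.15, limma adjusted p = 0.191). LINC01135, 1080 bases from it, was 477 and 349.96 in control and 745 and 751 in auxin (0.87, SE 0.21, adjusted p = 0.123), and neither gene's groups overlapped. NR4A3, an orphan nuclear receptor gene, was 519.7 and 651 in control and 992 and 975 in auxin (0.76, SE 0.19, adjusted p = 0.137), and AL359710.1 beside it was 1890 and 1872 in control and 2145 and 2341 in auxin (0.25, SE 0.15, adjusted p = 0.677). DUSP4, a phosphatase that turns off MAP kinases, was 15098 and 13915 in control and 11214 and 8231 in auxin (-0.59, SE 0.15, adjusted p = 0.139), and AC084262.2 was 239 and 234 in control and 186 and 155 in auxin (-0.48, SE 0.24, adjusted p = 0.545). The signs of gene and lncRNA were the same in 6 of the 9 pairs, these 3 and those of DUSP6, KLF2 and SERTAD1. They were opposite at DUSP5 (0.36, with DUSP5-DT at -0.18), at KLF10 (-0.45, with AP002851.1 at 0.06) and at BTG2 (0.22, with LINC01136 at -0.09).

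Of 48 epithelial and developmental transcription factors, 13 faced a divergent lncRNA, 9 of these lncRNAs were tested and none passed. SOX9 was the 1 partner of 12 tested that passed, as lower. MNX1-AS1 and MNX1, a homeobox gene, ran together from library to library, at 697, 458, 534 and 320.02 for the lncRNA and 629, 429, 576 and 338 for the gene, both controls first and then both auxin libraries. ID2-AS1 and ID2, which encodes an inhibitor of helix-loop-helix factors, did likewise, at 202, 415, 281 and 458 for the lncRNA and 1659, 3424, 2963 and 3819 for the gene. In both pairs the replicates of a group differed as much as the groups did. Beside LHX1, a further homeobox gene with 21.5 to 33.9 over the libraries, LHX1-DT was 312 and 285 in control and 313 and 360.5 in auxin.

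Of 42 genes of DNA replication and repair, 3 faced a divergent lncRNA, and no gene or lncRNA passed. NBR2, which shares its promoter with the repair gene BRCA1 at a distance of 68 bases, was 2558 and 2150 in control and 2557 and 2575 in auxin, while BRCA1 was 4696 and 5590 in control and 3128 and 4399 in auxin. AC112907.1 beside RFC4, a subunit of the clamp loader, was 279.7 and 148 in control and 234 and 179 in auxin, while RFC4 was 3433 and 4198 in control and 2307 and 2711 in auxin. BRCA1 and RFC4 had log2 fold changes of -0.47 (SE 0.18, limma adjusted p = 0.378) and -0.60 (SE 0.16, adjusted p = 0.166). Those of their lncRNAs were 0.13 and 0.0036, with standard errors of 0.16 and 0.32.

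At the limit of 2000 bases, the lncRNAs just inside were AL358072.1 at 1976 bases from MAN1A2, ZNF454-DT at 1968 and H1-10-AS1 at 1950. Their signals were low, at 8.98 to 30.3 for AL358072.1, 0 to 3.07 for ZNF454-DT, and 60.2 and 56.3 in control and 36.6 and 31.4 in auxin for H1-10-AS1. Just outside were CRNDE at 2007 bases from IRX5, NR2F1-AS1 at 2023 from NR2F1, and AL034422.1 at 2031 from SRC. NR2F1-AS1, divergent from a nuclear receptor gene, was 2290 and 3791 in control and 1152 and 1171 in auxin. CRNDE was 89.0 and 143 in control and 111 and 145 in auxin.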

How the data were processed

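EU-seq gave 4 libraries, 2 control and 2 auxin, grouped by the sample titles. Per the labels' protocols, human rRNA-depleted RNA was mixed with fly mRNA before capture and a directional library kit was used. Trimmomatic 0.39, Bowtie2 2.4.5 and deepTools 3.5.1 and the builds hg38 and dm6 are named in the submitters' processing notes, without their roles; the counting, strand setting and scaling are not given in the sources used here.

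The authors deposited 1 table with a signal per gene and library, with coordinates and gene type; 1 misspelt control column was read as control replicate 2 from its number. In each library 100% of low values were whole multiples of 1 step within 0.01, but among genes of at least 10 kb few held 1 step (in control replicate 1, 2 genes, against 141 with 2 steps and 164 with 3), so the steps were not taken as reads, depth is unknown and no count test was run. Of 37795 symbols matched to RefSeq GRCh38.p14, 99.8% overlapped and 20008 starts were equal after adding 1, so starts are printed 1 higher.

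A gene was tested where at least 2 libraries reached the equivalent of 10 at the median library total and its sum was 15 or more. The scaling was TMM, trimming 30% of log ratios and 5% of levels per end (factors 0.999 and 1.01 in control, 0.816 and 1.21 in auxin). The log2 of scaled signal plus 1 was fitted with limma 3.58.1 in R 4.3.3 (lmFit, eBayes with trend), auxin against control, with Benjamini-Hochberg adjustment over all 39464 tested genes. Fold changes on this scale understate those of low genes. The ratio of lncRNA to protein-coding gene was fitted the same way over 11687 pairs, the nearest protein-coding gene standing for the partner outside the divergent set. The scripts were tested on simulated data. Values per kb are scaled signal over the whole span, introns included. Other steps used Python 3.11.15.

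Named pairs were the called lncRNAs, the 10 called partners of smallest p, and the 5 largest rises and falls without overlap. Also named were the 5 smallest p-values of the ratio and the 5 highest per kb. The tested lncRNAs of the list of 32 candidates and 3 on either side of 2000 bases were named as well. The remaining called partners and the pairs of the lists were named after their values were seen. The members, lists and tests were chosen with earlier results of these data known. Scaling, filter, pseudocount, replicate block, left-out libraries, distance limit, overlap and threshold were varied. A marker gene and a pair of the lists are not reported here.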

Additional observations from a re-analysis of the deposited data

How the results depend on the processing

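The count of called lncRNAs (7) was 2 on the deposited scale, 3 with no filter, 3 among lncRNAs overlapping no other gene, 1 at an adjusted p under 0.01, and 2 to 10 with 1 library left out, the 2 being without control replicate 2. The count of called partners (21) was 6, 17, 12 and 10 under those settings in that order, 13 with starts within 500 bases, and 14 to 39 with 1 library left out (38 without auxin replicate 1, 39 without auxin replicate 2). Over all tested genes, 289 were called, 55 on the deposited scale, 82 at an adjusted p under 0.01, and 211 to 669 with 1 library left out. The count of called ratios stayed at 0 under the scaling, filter, pseudocount, distance and overlap settings and was 0 to 6 with 1 library left out. The median log2 fold change of lncRNAs lay between -0.0138 and 0.0507 with 1 library left out, and that of the ratio between 0.0183 and 0.0824. That of partners was 0.0153 by library size only, -0.0399 on the deposited scale, -0.0259 with starts within 1000 bases, and -0.0267 to -0.0143 with 1 library left out. Spearman's rho over pairs (0.33) was 0.25 with no filter, 0.43 with means of at least 50, and 0.29 to 0.34 with 1 library left out. The cause of these moves was not tested.

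With the replicate number as a block, 81 lncRNAs (7.96%), 231 partners and 4273 genes in all (10.8%) were called. All 7 lncRNAs and 21 partners were among them. Of the ratios, 20 of 990 were called, against 352 of all 11687 pairs. Of 38 pairs with both genes called, 36 had the same direction. The differences between replicates 1 and 2 correlated between control and auxin at 0.23 over all tested genes and 0.46 over the 29158 with a mean of at least 50, and with only 2 pairs and no label of a shared batch, the samples share only a number.

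Signs turned by library size only at MAN1A2 (0.0182), NIPBL (0.0205) and TIPARP-AS1 (0.0223), and on the deposited scale at WDR81 (-6.02e-04). With 1 library left out, the log2 fold change ranged from -0.0261 to 0.92 at AC091212.1, -1.45 to 0.20 at AL358072.1, -0.41 to 0.52 at AL365215.2, -0.32 to 0.70 at CPEB2-DT, -1.16 to 0.59 at FENDRR, -0.0137 to 0.23 at H1-10, -0.0414 to 0.0165 at MAN1A2, -0.59 to 0.0757 at MIR378D2HG, -0.0456 to 0.0242 at NIPBL, -0.30 to 0.44 at PANDAR, -0.38 to 0.0488 at PDP1, -0.0897 to 0.25 at RMRP, -0.0939 to 0.15 at SNHG19, -0.28 to 0.26 at TIPARP-AS1, -0.47 to 0.0754 at TRAF7, -0.25 to 0.30 at WDR81, -0.0238 to 0.0766 at ZFAS1 and -0.37 to 0.039 at ZNF454; none of these passed the test with all libraries.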

Other observations

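Both promoters of a short stretch of chromosome 8 faced lncRNAs with less signal in auxin. CIBAR1 and RBM12B overlap at their ends, so that their rows share signal, and each has a divergent lncRNA at its own start, LINC00535 and AC010834.2. All 4 rows had both auxin libraries below both controls, with log2 fold changes of -0.84 at CIBAR1, -0.77 at LINC00535, -0.62 at RBM12B and -1.39 at AC010834.2. Of these, CIBAR1 and AC010834.2 passed the test, and both lost their call without control replicate 2 (limma adjusted p of 0.0822 and 0.0878). The locus was singled out after its values were seen.

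By name, the 120 tested lncRNAs ending in DT had a median log2 fold change of -0.06, with 21 apart as higher and 31 as lower. The 128 ending in AS had a median of 0.05, with 32 higher and 18 lower. Over all tested genes the shares were 18.6% higher and 19.6% lower. The difference between the classes was not tested.

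NR2F1-AS1, whose start lies 2023 bases from that of NR2F1 and so just outside the limit, had both auxin libraries below both controls and fell by 1.34 on the log2 scale (SE 0.22, limma adjusted p = 0.0267). NR2F1 had a log2 fold change of -1.17 (adjusted p = 0.241).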
